A study of Mus musculus with 43 samples.

Results

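Klf2, Klf3, Klf4, Klf5, Klf6, Klf9 and Klf10 are genes of the Kruppel-like factor family of transcription factors. These 7 genes, of 52636 listed in each of the 2 expression tables, were followed through cultured mouse colon epithelium and colon fibroblasts treated with regorafenib, 5-fluorouracil (5-FU) or autogramin-2. They were picked by name, from the levels of all genes in all groups and after earlier results of these data were known, and no single comparison was recorded as the ground for the choice. The counts and adjusted p-values given for them therefore describe these libraries and are not independent evidence.

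Regorafenib is an oral multikinase inhibitor, 5-FU is a pyrimidine analogue that blocks thymidylate synthesis, and autogramin-2 is an inhibitor of autophagy that binds the cholesterol transfer protein GramD1A. Organoids came from adult mice. Colonoids (lines M41, M40 and M1) were grown from Vil-cre/ERT2/Apc wt/wt mice, and tumoroids (lines F11, M3 and M14) from Vil-cre/ERT2/Apc flox/flox mice. Both genotypes carried the tamoxifen-activated Cre driven by the Villin promoter, which acts in intestinal epithelium, and both were given tamoxifen in vivo, so that Apc, a brake on Wnt signalling, was removed from the epithelium of the flox/flox mice alone. Each line came from 1 mouse and was split into 4 arms, vehicle (DMSO), 4 µM regorafenib, 8 µM regorafenib and 1 µM 5-FU, which were collected on day 6, giving 24 libraries with 3 lines per genotype and arm. Fibroblast lines M3, M3(2), M1(2) and M11 from C57B/6 mice were grown from the colon tissue that remained after the crypts were taken off, and were sequenced on day 7 after vehicle, 4 µM regorafenib, 10 µM regorafenib, 1 µM autogramin-2, or 4 µM regorafenib with 1 µM autogramin-2. They gave 19 libraries, with 4 lines per arm except 10 µM regorafenib, which M11 did not receive. The arms of 1 line are parallel cultures of the same cells, so the p-values measure the spread between lines and cultures.

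Kruppel-like factors bind GC-rich and CACC-type promoter elements through a row of zinc fingers at the end of the protein, and many are induced within an hour of a stimulus. In the colon, Klf5 is found in the dividing cells of the crypt, whereas Klf4 marks the differentiated surface and is needed for goblet cells. Klf2 is best known from endothelial cells and resting T cells, where the kinase ERK5 and MEF2 factors drive it. Klf3 represses transcription with the corepressor CtBP, Klf6 responds to tissue injury, Klf9 is induced by glucocorticoids and thyroid hormone, and Klf10 was first described as an early gene of transforming growth factor beta (TGF-beta).

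Values are normalised read counts per 20000000 counted reads (CP20M), not divided by gene length. The organoid libraries held 512591 to 22366253 reads and the fibroblast libraries 7949965 to 12825919. The colonoid M41 library at 4 µM regorafenib stood apart as the shallowest. A single read in it is worth 39.0 CP20M, and the other 23 organoid libraries held at least 4371813 reads. Results that rest on it are given with and without it. The summed epithelial markers lay at 106355 to 349595 CP20M in the organoids and at 179 to 1535 in the fibroblasts. Krt19, one of these markers, lay at 162 to 1512 CP20M in the fibroblasts by itself. A sum can hide the change of a single marker, and Cdx1 and Cdx2 are given below. The summed fibroblast markers lay at 12 to 123 CP20M in the organoids and at 110998 to 186156 in the fibroblasts. In bulk libraries, fewer cells of a type and less RNA per cell cannot be told apart. Organoids and fibroblasts were sequenced and tabulated separately, so levels in the 2 tables are set side by side without a test.

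The 7 genes lie on 7 different chromosomes, and promoters were found for 5 of them, Klf5 and Klf10 having no entry in the table used. Those of Klf3 and Klf4, members that fell together in the organoids, and of Klf2, the member called in the fibroblasts, are shown because the factors' own family binds GC and CACC boxes. Each runs from 250 bases before to 50 bases after the RefSeq start (GRCm38.p6), 5′ to 3′ on the gene's strand. Capitals mark GC boxes, spelled GGGCGG. They also mark CACC boxes, spelled CACCC, and matches to a loose MEF2 pattern, all searched on both strands. That pattern allowed any base at its 4 middle positions, so a MEF2 match here need not be the MEF2 consensus. The windows are chr5:64803271-64803570 on the plus strand for Klf3, chr4:55532426-55532725 on the minus strand for Klf4, and chr8:72318812-72319111 on the plus strand for Klf2.
Klf3: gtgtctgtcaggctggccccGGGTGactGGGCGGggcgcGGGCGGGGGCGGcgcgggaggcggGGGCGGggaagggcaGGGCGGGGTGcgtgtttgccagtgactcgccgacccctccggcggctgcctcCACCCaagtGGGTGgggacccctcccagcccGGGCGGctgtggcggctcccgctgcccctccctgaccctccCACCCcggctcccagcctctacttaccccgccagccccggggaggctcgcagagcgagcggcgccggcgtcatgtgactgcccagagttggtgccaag
Klf4: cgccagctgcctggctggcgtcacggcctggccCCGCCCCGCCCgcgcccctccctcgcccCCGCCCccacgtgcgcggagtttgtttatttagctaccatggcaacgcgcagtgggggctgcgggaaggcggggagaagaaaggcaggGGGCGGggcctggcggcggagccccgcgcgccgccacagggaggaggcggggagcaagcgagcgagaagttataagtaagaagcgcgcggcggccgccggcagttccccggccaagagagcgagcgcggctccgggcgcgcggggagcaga
Klf2: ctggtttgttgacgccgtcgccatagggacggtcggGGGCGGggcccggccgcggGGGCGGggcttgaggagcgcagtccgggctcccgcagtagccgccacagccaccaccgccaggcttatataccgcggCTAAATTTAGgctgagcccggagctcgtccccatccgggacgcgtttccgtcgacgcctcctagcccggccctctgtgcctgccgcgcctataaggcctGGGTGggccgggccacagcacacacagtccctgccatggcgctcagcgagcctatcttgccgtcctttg
The Klf3 window held 6 GC boxes and 5 CACC boxes, in one place overlapping each other. The Klf4 window held 4 GC boxes and no CACC box. The Klf2 window held 2 GC boxes, 1 CACC box and 1 MEF2 match. The Klf6 window held 1 GC box and that of Klf9 held 1 CACC box. Of 32817 mouse promoters of the same length, 35.6% held a GC box, 57.5% a CACC box and 3.69% a MEF2 match. These matches describe letters in a window and say nothing of occupancy.

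In vehicle, divided by exon length, Klf6 had the highest mean level of the 7 genes in all 3 kinds of culture, and Klf2 and Klf5 changed places between epithelium and fibroblasts. Klf6 averaged 3108 CP20M per kb in colonoids, 2093 in tumoroids and 1457 in fibroblasts. Klf4 averaged 1750 and 2092 CP20M per kb in colonoids and tumoroids and 517 in fibroblasts. Klf5 averaged 1547 and 1462 CP20M per kb in the organoids but 23.5 in fibroblasts, where it ranked last. Klf2 averaged 15.16 and 7.22 CP20M per kb in the organoids, where it ranked last, and 215 in fibroblasts. Klf3 followed Klf5 in the organoids at 813 and 970 CP20M per kb and stood at 210 in fibroblasts. Klf10 averaged 491, 448 and 96.4 CP20M per kb in the same order of cultures. Klf9 was the most even, at 260, 313 and 289 CP20M per kb. In colonoids the lines of Klf4 and Klf5 overlapped, and every other pair of neighbours in the order was apart. In tumoroids Klf6 overlapped with Klf4, and Klf10 with Klf9. In fibroblasts Klf4, Klf9, Klf2 and Klf3 overlapped, while Klf6 above them and Klf5 below them stood apart from every line of the others. The exon length counts all annotated exons, which places a gene with long and seldom used exons too low.

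**Figure D1:**
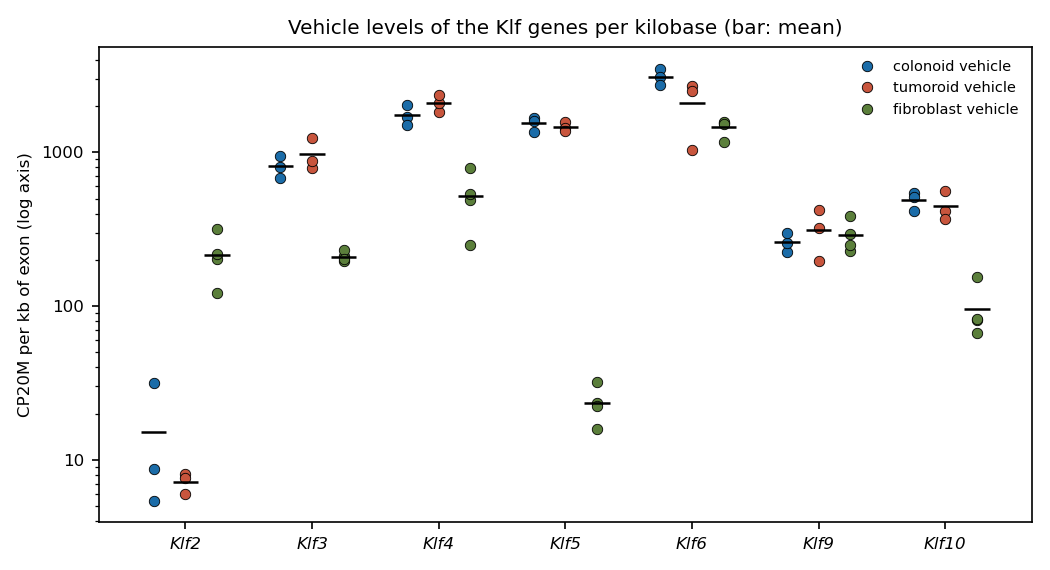
Vehicle level of each Kruppel-like factor gene in CP20M per kb of exon (log axis) in colonoids, tumoroids and fibroblasts. Points are lines and bars are means. Klf6 has the highest mean in each culture, Klf2 lies lowest in the organoids and Klf5 lowest in the fibroblasts.

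Regorafenib lowered Klf4, Klf3 and Klf10 in the organoids in every line. The comparison pooled both doses and both genotypes (12 regorafenib libraries against 6 vehicle libraries) and called a gene at a limma adjusted p under 0.001 with at least a 1.5-fold change, the adjustment running over all genes tested. By it 3 of the 6 members tested were called, all of them lower, against 4.97% of all 11320 genes tested called and 2.16% called lower. In those 3 genes no regorafenib library overlapped with a vehicle library, which held, in the lower direction, for 2.76% of all genes. The median log2 difference over the 6 members was -0.99, against -0.10 over all genes tested. Klf2 did not pass the filter on low values in the organoids (at least 200 CP20M in 2 libraries). It lay at 0 to 58 CP20M (0 to 19 reads) in the 24 libraries and had 0 reads only in the shallow M41 library, where that allows up to 117 CP20M.

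Klf4, which promotes goblet cell differentiation and holds back the cell cycle, had the largest pooled fall of the 3, though in tumoroids its fall was the smallest of them. In vehicle colonoids it lay at 5190, 4578 and 6240 CP20M in M41, M40 and M1. At 4 µM regorafenib it lay at 1015 (26 reads), 1471 and 1889 CP20M in those lines, and at 8 µM at 1038, 1137 and 1446. Each treated colonoid library was thus under 33% of its own vehicle, the values being 19.6% to 32.1% at 4 µM and 20% to 24.8% at 8 µM. In vehicle tumoroids Klf4 lay at 5595, 6363 and 7182 CP20M in F11, M3 and M14. At 4 µM it lay at 2594, 3667 and 3929 CP20M and at 8 µM at 2822, 3059 and 2894. The tumoroid lines kept 46.4% to 57.6% of their vehicle level at 4 µM and 40.3% to 50.4% at 8 µM, and the 2 groups did not overlap. The pooled log2 difference was -1.51 ± 0.14 (SE, limma adjusted p = 6.1e-06).

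Klf3, a repressor that works through CtBP, fell in both genotypes by similar amounts. Vehicle colonoids held 9008, 7703 and 10724 CP20M in M41, M40 and M1. They held 3317, 4412 and 4885 CP20M at 4 µM and 3249, 3087 and 3756 at 8 µM. Vehicle tumoroids held 8877, 13897 and 9940 CP20M in F11, M3 and M14, against 4850, 6550 and 5227 at 4 µM and 3765, 5361 and 3254 at 8 µM. The 6 lines were at 36.8% to 57.3% of their own vehicle at 4 µM and at 32.7% to 42.4% at 8 µM. The pooled log2 difference was -1.23 ± 0.14 (SE, limma adjusted p = 2.47e-05). Klf3 overlaps 2 other annotated genes, 1 of them on the opposite strand, and whether the counting used strand is not given in the sources used here.

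Klf10, the TGF-beta early gene, also fell in all lines. It lay at 2267, 1728 and 2155 CP20M in vehicle colonoids, at 469 (12 reads), 1294 and 1097 at 4 µM, and at 756, 879 and 710 at 8 µM. In vehicle tumoroids it lay between 1542 (M3) and 2345 CP20M (M14), with F11 nearer to M3 (mean 1871 ± 421, SD, n = 3), and the lines F11, M3 and M14 lay at 692, 1100 and 810 at 4 µM and at 562, 664 and 568 at 8 µM. Every treated library was under every vehicle library, at 20.7% to 74.9% of its own vehicle at 4 µM and 24.2% to 50.9% at 8 µM. The pooled log2 difference was -1.31 ± 0.18 (SE, limma adjusted p = 0.000124).

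**Figure D2:**
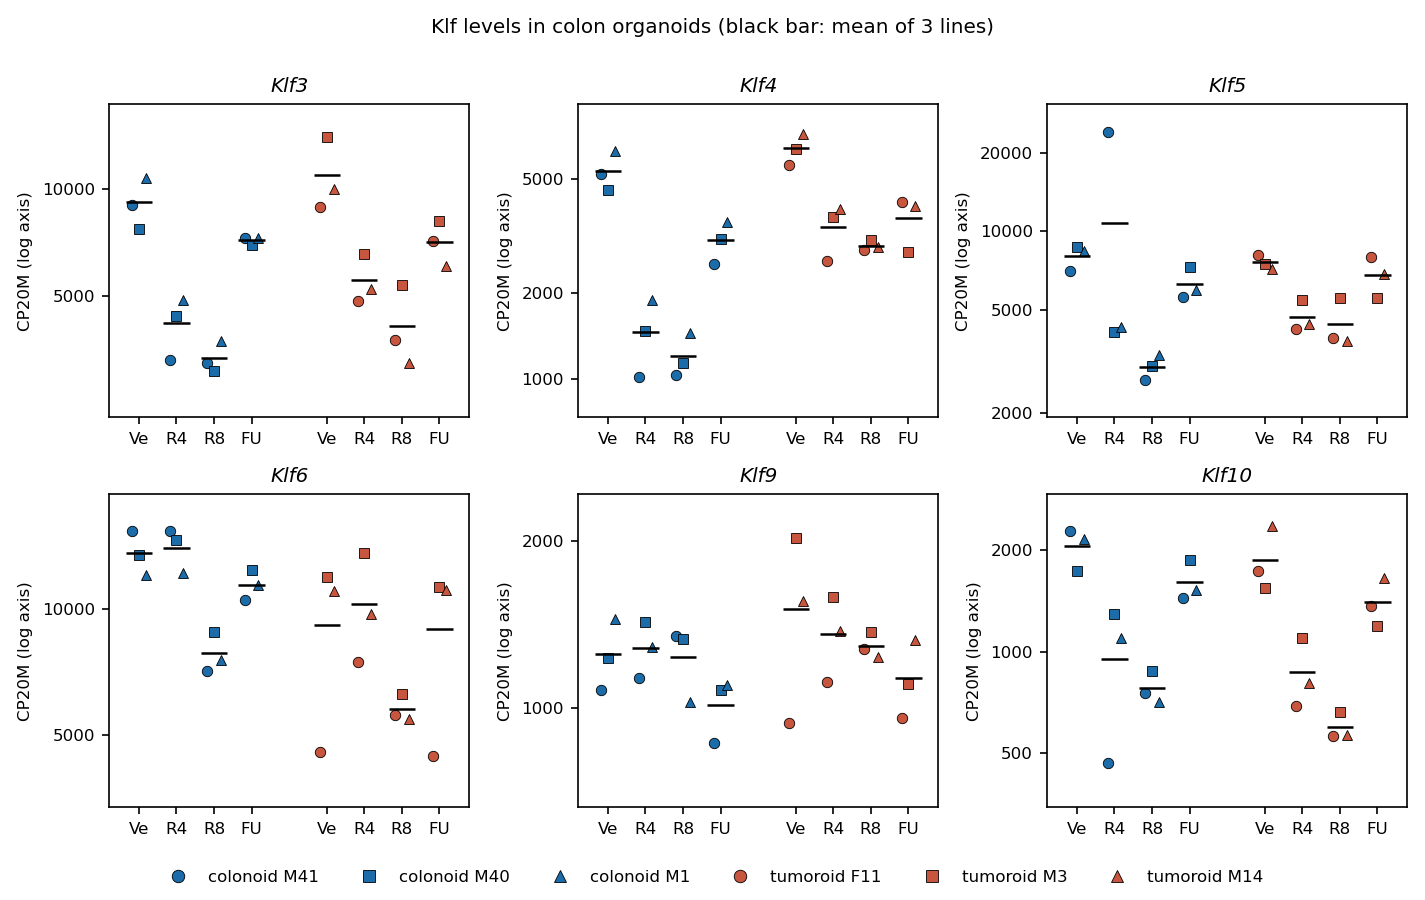
Level of Klf3, Klf4, Klf5, Klf6, Klf9 and Klf10 in each organoid library (CP20M, log axis) by arm. Point shapes tell the organoid lines apart, colours tell colonoids from tumoroids, and black bars are means. Klf3, Klf4 and Klf10 lie under vehicle in every regorafenib library, and the M41 library at 4 µM lies far above the others for Klf5 at 24035 CP20M.

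Klf5, the factor of dividing crypt cells, was lower in 5 of 6 lines, and whether it was called turned on the shallow library. Vehicle colonoids lay at 7059, 8724 and 8360 CP20M. At 4 µM, M41 stood at 24035 CP20M (616 reads) whereas M40 and M1 stood at 4089 and 4277, and at 8 µM the 3 lines stood at 2685, 3024 and 3335. Apart from M41 at 4 µM, every treated colonoid library was lower than every vehicle library. The share of all genes for which that held in colonoids is not given here. Tumoroids lay at 8140, 7507 and 7161 CP20M in vehicle, at 4223, 5458 and 4415 at 4 µM and at 3879, 5553 and 3786 at 8 µM, with no overlap between vehicle and treated libraries. With all libraries the pooled log2 difference was -0.75 ± 0.28 (SE, limma adjusted p = 0.0595). Without the M41 library it was -0.96 (limma adjusted p = 7.43e-06), which brought the members called to 4 of 6 where 10% of all 11274 genes tested were called.

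Klf6 and Klf9 did not pass the test for regorafenib against vehicle. Klf6, an injury-responsive activator, lay at 15402, 13487 and 12048 CP20M in vehicle colonoids, 15334, 14615 and 12178 at 4 µM and 7137, 8852 and 7563 at 8 µM. In tumoroids it lay at 4564, 11939 and 11068 CP20M in vehicle, 7475, 13632 and 9768 at 4 µM and 5590, 6288 and 5481 at 8 µM. All 3 colonoid lines and 2 of the 3 tumoroid lines were thus below vehicle at 8 µM, while F11, the lowest vehicle library, was at 122% of it. The pooled log2 difference was -0.27 ± 0.18 (SE, limma adjusted p = 0.298). Klf9, the glucocorticoid-induced factor, stayed between 940 and 2022 CP20M in the 18 vehicle and regorafenib libraries, with a log2 difference of -0.06 ± 0.14 (SE, limma adjusted p = 0.806).

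Within colonoids, 2 of the 6 members tested were called, both lower, against 1.46% of all genes called and 0.689% called lower. Klf4 changed by -2.01 ± 0.19 (log2, SE, limma adjusted p = 3.43e-05) and Klf3 by -1.28 ± 0.19 (limma adjusted p = 0.000786). Klf10 changed by -1.28 ± 0.26, short of the threshold (limma adjusted p = 0.0041). Without the M41 library at 4 µM, 4 members were called, Klf5 and Klf10 joining them, where 4.27% of all genes were. The Klf3 call was lost without the filter on low values (limma adjusted p = 0.00207) and with any 1 line of either genotype left out (limma adjusted p = 0.00109 to 0.0108), and the Klf4 call without line M40 (limma adjusted p = 0.00197).

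Within tumoroids none of the 6 was called by limma at the adjusted p of 0.001, where 0.203% of all genes were called. By edgeR's quasi-likelihood test 1 was called, and the share of all genes that edgeR called is not given here. By limma 3 had an unadjusted p under 0.05. Those 3 were Klf3 at -1.18 ± 0.19 (log2, SE, limma adjusted p = 0.00288), Klf4 at -1.02 ± 0.19 (limma adjusted p = 0.00568) and Klf10 at -1.35 ± 0.26 (limma adjusted p = 0.00604). In these 3 and in Klf5 no treated tumoroid library reached a vehicle one, which held in the lower direction for 1366 of all 11320 genes tested. With the line as a block limma called Klf3 (0.839% of all genes), and without the M41 library at 4 µM it called 3 members (1.52% of all genes).

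Whether the response differed with Apc was tested by the interaction of genotype and regorafenib. Klf4 fell more in colonoids by 0.99 ± 0.27 on the log2 scale (SE). Its unadjusted p was 0.00221 and its limma adjusted p was 1, so the difference was not called. No other member had an unadjusted p under 0.05. edgeR called none of the members either, and of all genes tested 0.00883% were called. For the other 5 members the difference was at most 0.22 in size. Without the M41 library at 4 µM, Klf5 fell more in colonoids by 0.42 (limma adjusted p = 0.872) and Klf4 by 0.87 (limma adjusted p = 0.832), and the other 4 members differed by at most 0.28 in size. In vehicle, tumoroids against colonoids, limma called none of the 6 members and edgeR none, where 0.141% of all genes were called. Only Klf6 had an unadjusted p under 0.05, at -0.68 ± 0.29 (log2, SE, limma adjusted p = 0.282), and without line F11 the difference was -0.24.

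Between the 2 doses, 8 µM against 4 µM, limma called none of the 6 members (0.451% of all genes) and edgeR none, with 3 at an unadjusted p under 0.05. Klf6 was the member with the smallest p and was lower at 8 µM in 6 of 6 lines, by -0.81 ± 0.21 (log2, SE, limma adjusted p = 0.0944). Blocking on the organoid line called it (limma adjusted p = 0.0274), along with 1.78% of all genes. Klf3 was likewise lower at 8 µM in 6 of 6 lines, by -0.38 ± 0.16 (log2, SE, limma adjusted p = 0.284), and Klf5 in 5 of 6 by -0.71 ± 0.32 (limma adjusted p = 0.32). Without the M41 library at 4 µM the Klf5 difference was -0.29 (limma adjusted p = 0.195). For Klf4 the 2 doses differed by -0.22 ± 0.16 (limma adjusted p = 0.507).

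**Figure D3:**
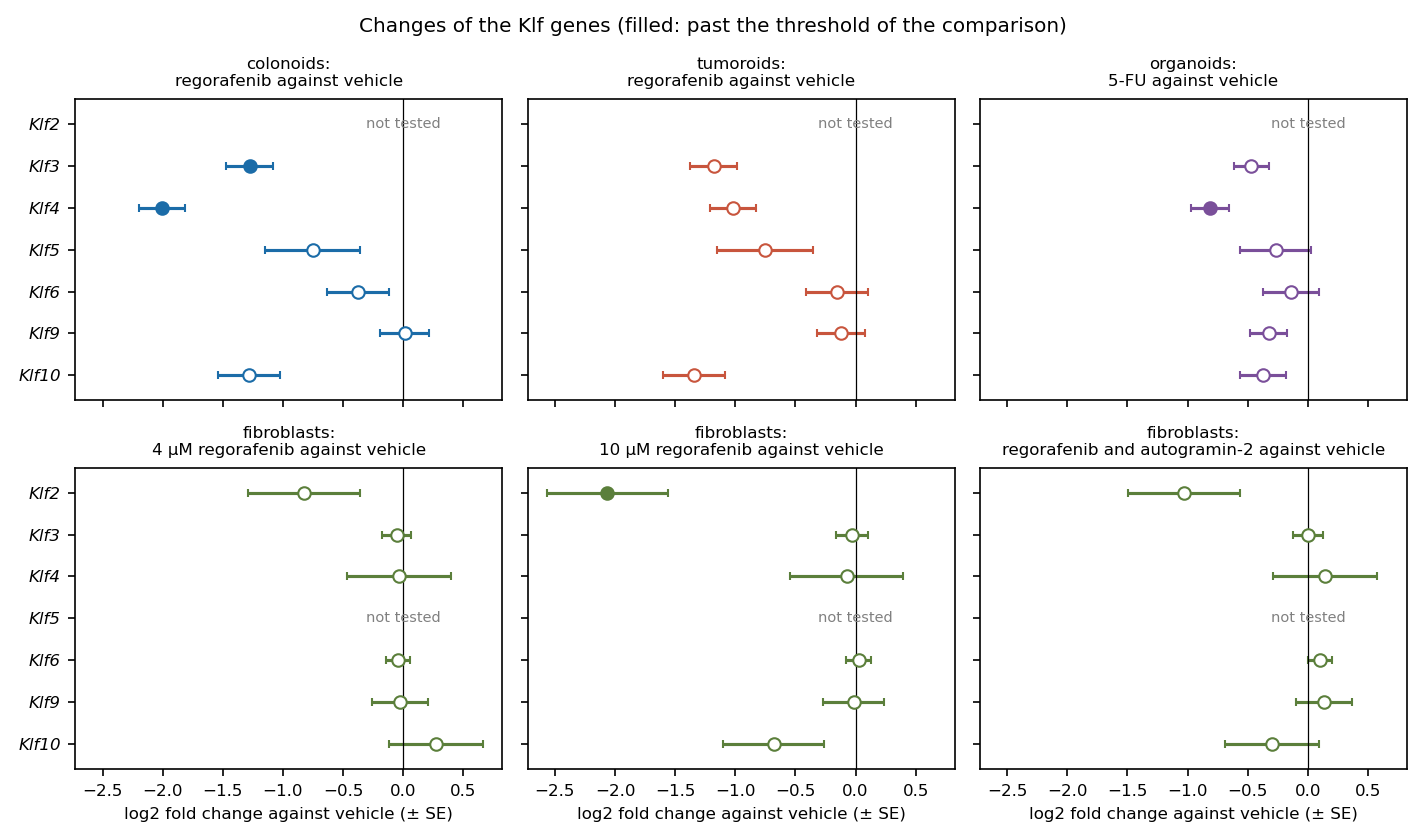
Log2 difference of each tested Kruppel-like factor gene (points, with bars of 1 SE) in the organoid and fibroblast comparisons. Klf3, Klf4 and Klf10 lie below -1 for regorafenib in organoids, and Klf2 lies at -2.06 for 10 µM regorafenib in fibroblasts.

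Of the members, Klf4 was called lower with 5-FU. In colonoids it lay at 2517, 3092 and 3537 CP20M in M41, M40 and M1, and in tumoroids at 4164, 2771 and 4023 in F11, M3 and M14. The titles of these 3 tumoroid libraries read colonoid, and they were placed by their library names and genotype labels. All 6 lines were under every vehicle library, at 43.5% to 74.4% of their own vehicle. The share of all genes with no such overlap under 5-FU is not given here. The log2 difference was -0.81 ± 0.16 (SE, limma adjusted p = 0.00977). Klf4 was the 1 member called of the 6 tested, at an adjusted p under 0.05 with a 1.5-fold change, where 2.35% of 11562 genes were called and 0.822% called lower. The call was lost without tumoroid M3 (adjusted p = 0.133) and without tumoroid M14 (adjusted p = 0.0677). Klf3 lay below its own vehicle in 6 of 6 lines as well, at 58.3% to 90.1% of it, and missed the threshold (log2 difference -0.47 ± 0.15, SE, limma adjusted p = 0.0882). The other members differed by less, Klf5 by -0.27, Klf10 by -0.37, Klf9 by -0.32 and Klf6 by -0.14 on the log2 scale.

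In the fibroblasts the member called in the fit without the line was Klf2, a factor of quiescence in other cells. In vehicle it lay at 376, 582, 401 and 226 CP20M in M3, M3(2), M1(2) and M11. At 4 µM regorafenib the same lines lay at 123, 474, 232 and 122 CP20M, and at 10 µM the first 3 lay at 66, 94 and 67. Every line was lower at 4 µM, where the groups overlapped, and at 10 µM no library reached the lowest vehicle library. The 3 lines stood at 16.15% to 17.55% of their own vehicle at 10 µM, on 33 or more reads in each library.

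Of 6 members tested at 10 µM, Klf2 alone was called, by -2.06 ± 0.50 (log2, SE, limma adjusted p = 0.0115), against 7.33% of all 11032 genes called and 4.09% called lower. The call was lost without line M3 (adjusted p = 0.135) and without line M1(2) (adjusted p = 0.145). Blocking on the fibroblast line gave a difference of -2.36 (limma adjusted p = 3.47e-07), and Klf10 was also called, where 13.8% of all genes were. At 4 µM none of the 6 members was called by limma (1.02% of all genes), none had an unadjusted p under 0.05 and edgeR called none. Klf2 differed by -0.82 ± 0.47 there (limma adjusted p = 0.472), and with the line as a block it was called (adjusted p = 0.00627, 7.22% of all genes). Between 10 and 4 µM none of the 6 was called by limma (0.145% of all genes) or edgeR, Klf2 and Klf10 having an unadjusted p under 0.05. With the line as a block both were called, Klf2 at -1.54 (limma adjusted p = 0.000445) and Klf10 at -1.06 (limma adjusted p = 0.0133), where 6.02% of all genes were.

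**Figure D4:**
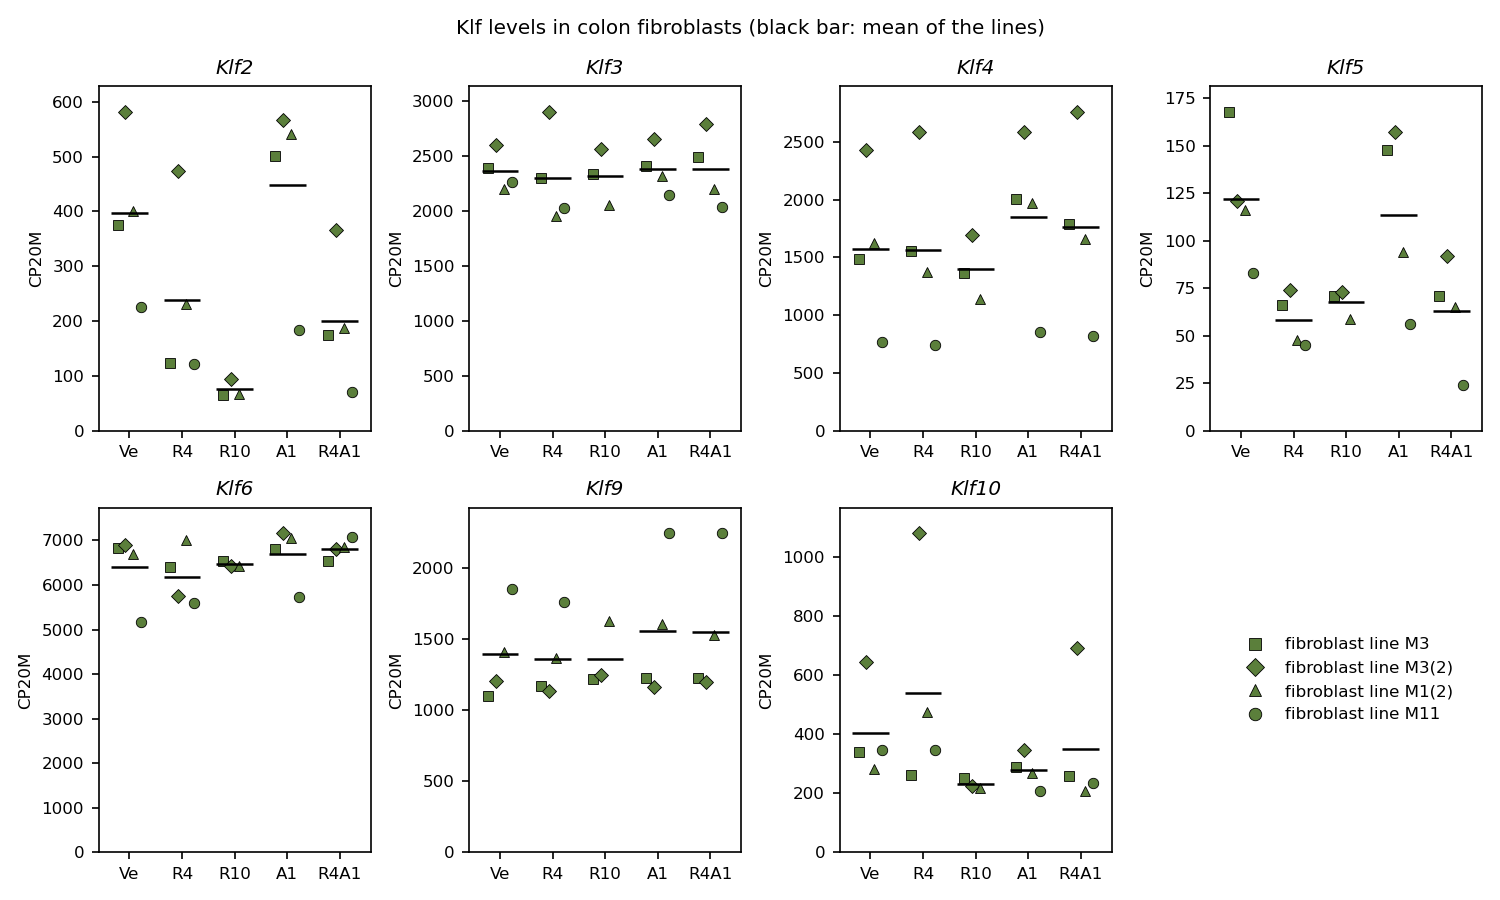
Level of the 7 Kruppel-like factor genes in each fibroblast library (CP20M, linear axis) by arm. Point shapes tell the fibroblast lines apart, and black bars are means. Klf2 at 10 µM regorafenib lies at 66 to 94 CP20M, under all 4 vehicle libraries at 226 to 582, while Klf6 stays between 5168 and 7164 in all 19 libraries.

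With autogramin-2 alone none of the 6 members tested in the fibroblasts was called. Klf2 lay at 501, 566, 541 and 184 CP20M in M3, M3(2), M1(2) and M11, higher than vehicle in 2 lines and lower in 2 (log2 difference 0.13 ± 0.47, SE, limma adjusted p = 1). Of all genes 0% were called by limma, 120 having an unadjusted p under 0.05, none of them a member, and edgeR also called none. With 4 µM regorafenib and autogramin-2 together Klf2 lay at 175, 367, 188 and 71 CP20M, lower than vehicle in 4 of 4 lines. That difference was -1.03 ± 0.47 (log2, SE, limma adjusted p = 0.262). No member was called by limma, with 1.66% of all genes called and Klf2 the 1 member with an unadjusted p under 0.05, or by edgeR. With the line as a block Klf2 was called (adjusted p = 0.0011, 6.99% of all genes). For autogramin-2 added to 4 µM regorafenib no member was called by limma, where 0.00906% of all genes were, or by edgeR, and none had an unadjusted p under 0.05. For Klf2 that added difference was -0.21 ± 0.47 (log2, SE, limma adjusted p = 1).

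Markers of other cell types also differed between the arms in which Klf2 differed, some lower and some higher, and their part in the result was not tested. The summed macrophage markers lay at 1196 to 6270 CP20M in vehicle, 760 to 2197 at 4 µM and 614 to 651 at 10 µM regorafenib. They lay at 894 to 4065 CP20M with autogramin-2 and at 506 to 736 with both agents. Of the 3 macrophage markers tested at 10 µM, 1 was called, Lyz2, the lysozyme of myeloid cells, at -2.60 (log2, limma adjusted p = 0.00806). Line M11 had the highest macrophage sum in vehicle and the lowest Klf2. The 10 µM group lacks M11, so the vehicle and 10 µM marker values come from unlike sets of lines. The summed endothelial markers lay at 1539 to 13839 CP20M in vehicle, 2410 to 36705 at 4 µM and 1949 to 8557 at 10 µM, and limma called 0 of the 7 tested at 10 µM, edgeR none, with 0 at an unadjusted p under 0.05. The endothelial sum was higher at 4 µM than in vehicle in all 4 lines, whereas Klf2 was lower in all 4. Line M3(2) had the highest endothelial sum in every arm and the highest Klf2 in every arm. Of the 8 fibroblast markers tested at 10 µM, 2 were called, both lower. They were Pdgfra, a growth factor receptor of fibroblasts, at -3.03 (log2, limma adjusted p = 0.0055) and Col3a1, a fibrillar collagen, at -1.43 (limma adjusted p = 0.015). At 4 µM Pdgfra was called as well, at -2.51 (limma adjusted p = 0.0459). The summed smooth muscle markers lay at 7570 to 23293 CP20M in vehicle and at 30434 to 38725 at 10 µM. The summed T cell markers lay at 8 to 90 CP20M in all 19 libraries.

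**Figure D5:**
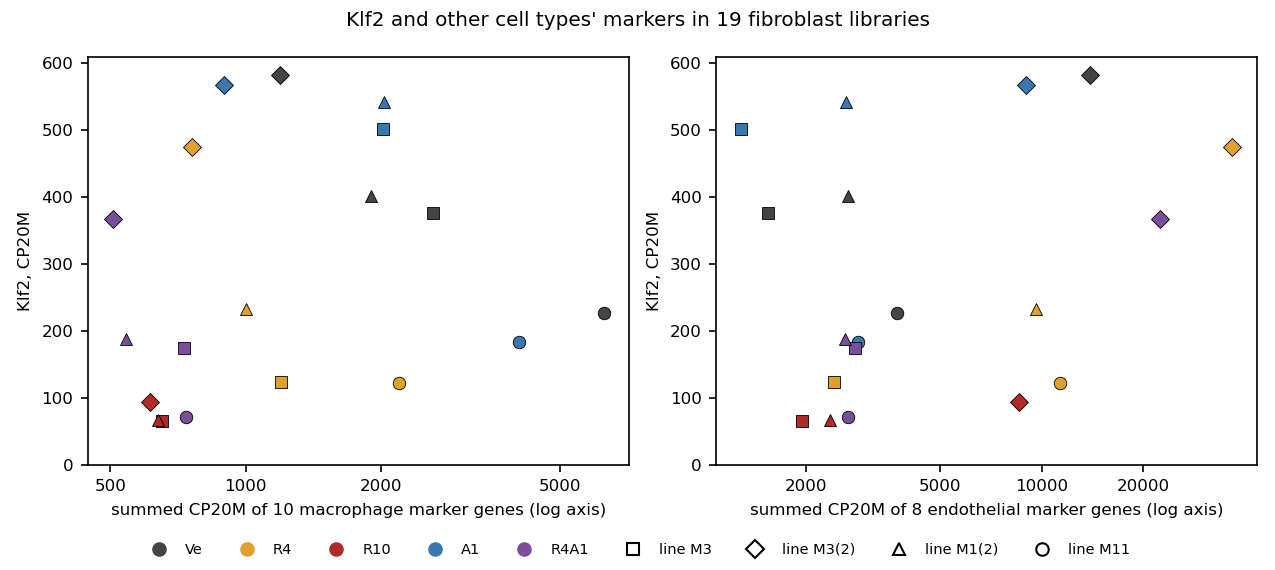
Klf2 level (CP20M) of each fibroblast library against its summed macrophage markers and its summed endothelial markers (CP20M, log axes), coloured by arm. The 10 µM regorafenib libraries lie at 66 to 94 CP20M for Klf2 and at 614 to 651 for the macrophage sum.

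The other members did not pass the test in any fibroblast comparison in the fit without the block, and for Klf4 and Klf9 the same line was highest in every arm that held it. Klf4 lay at 1485, 2425, 1626 and 767 CP20M in vehicle in M3, M3(2), M1(2) and M11, and M3(2) was highest and M11 lowest in every arm that held them. Klf9 was highest in M11 in each of its 4 arms, at 1758 to 2242 CP20M. Klf3, at 1956 to 2903 CP20M, and Klf6, at 5168 to 7164, varied little over the 19 libraries. At 10 µM the log2 differences of Klf3, Klf4, Klf6 and Klf9 were at most 0.07 in size, and over all 6 fibroblast comparisons at most 0.24. The vehicle group there includes M11, the lowest line for Klf4, which the 10 µM group lacks. Within lines Klf4 was lower in 3 of 3, at 69.8% to 92.1% of its own vehicle, and blocking on the line gave -0.39 (log2, limma adjusted p = 0.00125), short of the 1.5-fold change.

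Klf10 lay at 340, 643, 281 and 347 CP20M in vehicle in M3, M3(2), M1(2) and M11. At 4 µM regorafenib it lay at 262, 1080, 476 and 345 CP20M, and at 10 µM at 252, 224 and 219 in the first 3 lines. At 10 µM every library was under every vehicle library, as for Klf2, which in the lower direction held for 1782 of all 11032 genes tested, and the log2 difference was -0.68 ± 0.42 (SE, limma adjusted p = 0.324). Blocking on the line gave -0.79 (limma adjusted p = 0.027). Klf5 did not pass the filter in the fibroblasts. It lay at 168, 121, 116 and 83 CP20M in vehicle, at 66, 74, 48 and 45 at 4 µM and at 71, 73 and 59 at 10 µM. It was lower than vehicle at both doses with no overlap, and it was not tested. The share of all genes with no such overlap at 4 µM is not given here.

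Over the 23 libraries without the shallow one, Pearson's r on the log2 scale was 0.894 between Klf3 and Klf5, 0.870 between Klf4 and Klf5, 0.839 between Klf3 and Klf4 and 0.813 between Klf3 and Klf10. It was 0.803 between Klf5 and Klf10 and 0.614 between Klf4 and Klf10, the lowest among these 4 members. These libraries share lines and arms, and the values are descriptions. The genes whose pattern over those libraries was most like each member, by the same r among 11526 genes, were Pag1 (0.951) and Lor (0.946) for Klf3, Isg20l2 (0.916) and Rpf1 (0.915) for Klf4, and Rhof (0.947) and Egr1 (0.937) for Klf10. For Klf5 they were Gm26642 (0.950) and Muc13 (0.946), for Klf6 F3 (0.912) and Dusp5 (0.902), and for Klf9 Hivep1 (0.875) and Gosr1 (0.815). In the 19 fibroblast libraries, among 11032 genes, they were Gm44275 (0.949) and Nqo1 (0.948) for Klf2, Ada (0.946) and Lyn (0.916) for Klf10, and Mdfic (0.941) and Syt17 (0.930) for Klf4. For Klf9, which followed line M11, they were Grik5 (0.978) and Pde1b (0.971), for Klf3 Tmem164 (0.907) and Atg9a (0.858), and for Klf6 Etfa (0.858).

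The rest of the family is 19 further Klf and Sp genes, and the filter left 10 of them in either table. For regorafenib in organoids limma called none of the 10, 5 having an unadjusted p under 0.05, with a median log2 difference of -0.29. Of the 10, edgeR called 1, and the share of all genes that edgeR called is not given here. Sp3, a widely expressed GC box binder, came nearest at -0.78 ± 0.20 (SE, limma adjusted p = 0.0103) and was lower in 6 of 6 lines. Klf11, a close relative of Klf10, followed at -0.73 ± 0.24 (limma adjusted p = 0.0377). At 10 µM in fibroblasts limma called none of the 10, 2 having an unadjusted p under 0.05, and edgeR called none.

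Genes of the pathways around the members were counted from lists, to be read against the 4.97% of all genes called in organoids and the 7.33% called at 10 µM in fibroblasts. For regorafenib in organoids, 2 of 14 immediate early genes tested were called, both lower, and 10 had an unadjusted p under 0.05. They were Egr1, a growth factor-induced zinc finger gene, at -3.03 (log2, limma adjusted p = 3.67e-05) and Fos, a subunit of AP-1, at -1.88 (limma adjusted p = 2.19e-05). Of 6 genes of differentiated colon epithelium tested, 2 were called, both lower, with a median of -2.48. They were Car1, a colonocyte carbonic anhydrase, at -4.60 (limma adjusted p = 2.94e-05) and Clca1, a goblet cell secreted protein, at -3.14 (limma adjusted p = 6.71e-05). Of the 8 epithelial markers 2 were called, both lower. Cdx1 differed by -3.28 (log2, limma adjusted p = 0.000274) and was lower in 5 of 6 lines. Cdx2 differed by -1.89 (limma adjusted p = 0.000292) and was lower in 6 of 6. Of 9 proliferation genes limma called none, edgeR none, with 0 at an unadjusted p under 0.05. Of 14 corepressor genes limma called none, edgeR none, with 2 at an unadjusted p under 0.05.

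In fibroblasts at 10 µM regorafenib, 0 of 6 genes of the ERK5 and MEF2 route were called by limma and 0 by edgeR, 1 having an unadjusted p under 0.05, with a median log2 difference of -0.03. Of 9 proliferation genes, 7 were called, all lower, among them the division marker Mki67 at -2.34 (limma adjusted p = 0.00327). Of 16 immediate early genes tested 2 were called, both lower, Myc at -0.83 (limma adjusted p = 0.00186) and Fosl1 at -0.83 (limma adjusted p = 0.0428). Of 11 TGF-beta target genes 2 were called, both higher, Ltbp2 at 1.90 (limma adjusted p = 0.00132) and Ctgf at 1.35 (limma adjusted p = 0.0255). Of 7 glucocorticoid-induced genes 1 was called, Fkbp5, a cochaperone of the receptor, at -1.15 (limma adjusted p = 0.0234), while Klf9 did not pass the test. Of 14 corepressor genes 1 was called, Sin3a, a scaffold of histone deacetylase complexes, at -0.59 (limma adjusted p = 0.0026). That share of the corepressor genes is about the share of all genes called, and no list was tested against all genes.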

How the data were processed

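Per the labels and the methods, the authors trimmed reads with Trimmomatic 0.36, aligned them to GRCm38 with STAR 2.5.3a and counted them per Ensembl 90 gene with HTSeq 0.9.1. The deposited values (signal) are these counts scaled to 20000000 per library and rounded up. Whole reads were recovered from their steps, 99.6% to 100% of values falling on a step. In tumoroids F11 and M14 with 5-FU and M3 in vehicle and at 4 µM regorafenib, the step was 0.894 to 0.992 CP20M. There every whole number falls on a step, so the 100% is no check and the reads are approximate. The members and lists were chosen with earlier results of these data known. Genes with at least 200 CP20M in 2 libraries were tested on log2(CP20M + 20) with limma 3.58.1 in R 4.3.3, Benjamini-Hochberg adjusted over all genes tested, so fold changes of low genes are understated. The fits used 18 organoid libraries for regorafenib and genotype, 24 for 5-FU and 19 fibroblast libraries. A call needed an adjusted p under 0.001 and a 1.5-fold change for regorafenib against vehicle in organoids, under 0.01 and 2-fold for genotype in vehicle, under 0.05 for the difference between genotypes, and under 0.05 and 1.5-fold otherwise. The genes named beyond the members are the called genes of the lists, the nearest of the family and the 2 genes most like each member by correlation. Some results these rules select are not reported here. Sp3 and Klf11 were named after their values were seen. Tables were read with Python 3.11.15.

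Alternatives were edgeR 4.0.16 on the recovered reads, other filters, pseudocounts and scalings, each line left out, and the line as a block. Of single libraries, only colonoid M41 at 4 µM regorafenib was left out. Same-numbered libraries of a group set share a line, that is the same animal or culture. Their residuals correlated with a mean r of 0.503 (36 pairs) in organoids and 0.719 (36 pairs) in fibroblasts, against -0.249 and -0.229 between lines. Replicate libraries differed far beyond sampling noise, at 8.86 to 111 chi-square per gene. Promoters came from RefSeq on GRCm38.p6. Tests and code were checked on simulated data. Counts of reads carry counting error only, and reads are not unique molecules.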

Additional observations from a re-analysis of the deposited data

Results flagged for a closer look

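Among 28 sets of 4 fibroblast libraries (7 genes by 4 arms), 3 held a line far from the other 3 by Dixon's ratio, which chance gives in about 1 in 20 sets. Klf2 in line M11 with autogramin-2 was low at 184 CP20M against 501 to 566, with a ratio of 0.830. Klf6 in line M11 in vehicle was low at 5168 CP20M, with a ratio of 0.884. Klf10 in line M3(2) with regorafenib and autogramin-2 was high at 692 CP20M against 209 to 260, with a ratio of 0.894. M11 was also the line of the highest macrophage marker sum in vehicle, and M3(2) that of the highest endothelial marker sum in each arm, and their part in these values was not tested.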

How the results depend on the processing

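No direction of a called member reversed under any alternative. Of 936 gene values under alternatives, 896 kept their side of the threshold, 15 lost it and 25 newly passed it. Among the 896, 42 changed sign below the threshold. The share of all genes called also differed between settings. In tumoroids it was 0.203% in the fit above, 0.839% with the line as a block and 1.52% without the M41 library at 4 µM. A count below without such a share does not set the members apart from other genes. Counts of members called that moved include the following, the cause not being tested. For regorafenib in organoids with both genotypes pooled (3 called) the count was 4 without the M41 library at 4 µM, where 10% of all genes were called. Other settings of that pooled comparison, apart from the block, are not listed here. For regorafenib in colonoids (2 called) the count was 1 without the filter on low values, 4 without the M41 library at 4 µM, and 0 to 1 with a line left out. In tumoroids (0 called) it was 1 by edgeR, 1 with the line as a block, 1 in the 24-library fit, 3 without that M41 library, 4 without it and with the block, and 0 to 1 with a line left out. For 8 against 4 µM (0 called) it was 1 with the block, with or without the M41 library. For 5-FU (1 called) it was 0 to 1 with a line left out. In fibroblasts the block gave 1 at 4 µM (0 called), 2 at 10 µM (1 called), 1 for regorafenib with autogramin-2 (0 called) and 2 for 10 against 4 µM (0 called), and a line left out gave 0 to 1 at 10 µM. The block changed no other count of member calls, and could not be fitted for genotype in vehicle, where each line has 1 genotype. Median-of-ratios scaling moved the median of all genes in colonoids from -0.15 to -0.03. Few reads limit Klf2 in organoids and, to differing degrees, the values of the M41 library at 4 µM. There Klf2 held 0 reads, Klf10 12 and Klf5 616, and why Klf5 was high was not tested.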
